A study of Mus musculus with 2 samples.

Results

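The cells compared here are the leukocytes of the mouse cochlea that are neither neutrophils nor B lineage cells, in 1 pool collected on day 3 after noise and 1 sham control pool. Of 1556 cell barcodes, 1285 passed the cell and hashtag filters, and 306 of these met the rule for this comparison: 129 from sham and 177 from day 3. The members were chosen by measured values, as follows. A barcode had at least 200 genes and at most 10% mitochondrial UMIs (unique molecular identifiers, each standing for 1 captured transcript), and its leading hashtag had at least 10 UMIs and at least 80% of all hashtag UMIs. Barcodes were left out when the neutrophil calprotectin genes S100a8 and S100a9 together, or the granule genes Camp and Ngp together, reached 300 per 10000 gene UMIs, or when the B cell receptor gene Cd79a had 3 UMIs or more. These 5 genes are not compared singly below. However, 4 of them stand on the marker list for neutrophils, and Cd79a stands on that for B cells. Summed levels of those lists therefore include genes that the rule limited.

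Per the labels, the cochleae of 6 mice were pooled for each condition, digested with Accutase, stained for CD45, tagged with a hashtag antibody for each condition and sorted as live CD45+ cells. Hashtag1 marked the control, Hashtag2 day 3, and the other two hashtags days 7 and 14, whose pools are given below as side values (76 and 47 cells that meet the same rule). The control is called sham treated in one place of the labels and untreated in another, and is called sham here. All 4 pools ran as 1 droplet run, in which the RNA and hashtag libraries share their barcodes by design, and each barcode was assigned to 1 pool by its hashtag. Each condition is 1 pool, so no difference between mice can be measured and no p-value is given. Ratios are of summed UMIs per 1000000 gene UMIs (CPM), day 3 to sham, with exact 95% intervals that cover counting error only. A gene counts as measured in a set of cells when both pools together hold at least 20 UMIs, and as higher or lower when its ratio passes 1.5-fold.

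The inner ear holds resident macrophages, and blood-borne leukocytes enter it after acoustic injury. Type I interferons act on many cell types through the receptor chains Ifnar1 and Ifnar2, whose signal reaches interferon-stimulated response elements in promoters and switches on antiviral genes such as the Ifit, Oas and Slfn families, Isg15 and Irf7. Natural killer (NK) cells and cytotoxic T cells kill target cells with granzymes and perforin, basophils store proteases and histamine, and monocytes marked by Ly6c2 and Ccr2 enter inflamed tissue and can become macrophages.

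The day 3 cells carried 2473281 gene UMIs and the sham cells 1482486, with medians of 9395 and 6652 UMIs per cell. The share of filtered cells that met the rule was 37.8% in sham (exact 95% interval 32.7 to 43.2) and 32.1% on day 3 (28.2 to 36.2). Median mitochondrial percentages were 3.88 and 3.52, and the leading hashtag held a median of 99.6% and 99.3% of hashtag UMIs. Just inside the rule, the highest calprotectin level of a member was 290.4 per 10000, and just outside it the lowest was 302.3. The highest Camp and Ngp level inside was 121.0 per 10000, and no barcode was left out for these genes alone.

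The label of the cells, outside neutrophils and B cells, held in part. Leiden clustering of the cells of all 4 pools that met the rule gave 13 clusters in 11 groups, shown in the plot of cell shares. A group of 34 cells (11 sham, 23 day 3) kept a neutrophil profile at low depth, with medians of 2993 and 3036 UMIs per cell, and was led by Il1b, G0s2 and the neutrophil receptors Csf3r and Cxcr2. Of the 9 neutrophil markers that named them, 4 are genes of the rule itself. These cells are called neutrophil-like and are kept in the totals. Without them, 9.12% of 9820 measured genes were higher and 8.55% lower, close to the values given below for all cells, and results are given both ways where they differ.

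NK cell-like cells made up 20.2% of the sham cells (26 cells, 13.6 to 28.1) and 21.5% of the day 3 cells (38 cells, 15.7 to 28.3). The ratio of these shares was 1.07, with an interval of 0.630 to 1.83. T cell-like cells made up 19.4% of sham (25 cells, 13 to 27.3) and 14.1% of day 3 (25 cells, 9.35 to 20.1), a ratio of 0.729 (0.402 to 1.32). Basophil-like cells stood at 16.3% and 14.1% (21 and 25 cells), a ratio of 0.868 (0.466 to 1.63). The shares of these 3 lineages could therefore not be told apart between the pools beyond counting error. A small cluster led by Cox6a2 and Dntt had 5 of 7 plasmacytoid dendritic cell markers up, but it was left unnamed because Dntt, a marker of lymphoid precursors, was among its leading genes, as decided after the clusters were seen. Ebf1 and Ly6d were among them too, and the B cell list ranked next, so cells of the B lineage may remain under the Cd79a limit. This cluster held 11 sham and 4 day 3 cells (8.53% and 2.26%), a ratio of 0.265 (0.0616 to 0.894). The Cd79a limit is a count of UMIs, so it depends on depth. Medians in this cluster were 5694 UMIs per cell in sham and 26190 on day 3. The part of depth in the ratio was not tested. Macrophage-like cells numbered 6 in sham and 22 on day 3. Since the C1q genes that name that cluster also differed between the pools, these numbers describe the clusters and are not compared.

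**Figure D1:**
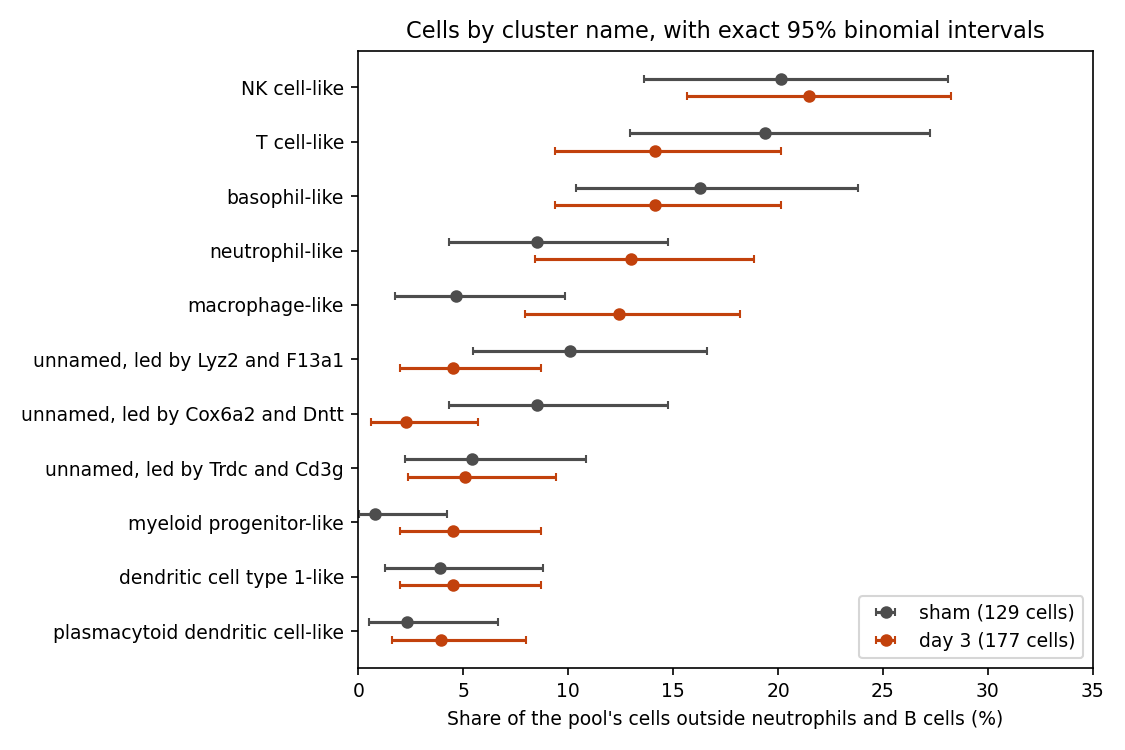
Share of each pool's cells outside neutrophils and B cells that fell in each cluster group (percent, points) with exact 95% binomial intervals (bars), for sham (129 cells) and day 3 (177 cells). The intervals of the 2 pools overlap for NK cell-like, T cell-like and basophil-like cells.

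Among the 30 gene lists compared, type I interferon response genes had the highest share of members past the fold threshold in all cells together. Of 32 genes on the list, 30 were measured in all cells together, and 28 of these were at least 1.5-fold higher on day 3 and 0 lower, with a median log2 ratio of 1.91. Among all 9896 measured genes, 8.74% were higher and 8.41% lower, and the median log2 ratio was -0.02. Because 18 of the 30 genes had under 20 UMIs in sham and so passed the minimum through day 3, the count was repeated on genes with at least 20 UMIs in sham alone. Then 10 of 12 list genes were higher, with a median log2 ratio of 1.00, beside 3.51% of the 7348 genes that met this minimum. Summed over the list, the level was 1226 CPM in sham, 3462 CPM on day 3, 1801 CPM on day 7 and 1092 CPM on day 14. Day 3 was the highest of the 4 pools, and day 14 was below sham.

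The promoters of 4 of these genes are shown because they carry 2 copies of GAAA separated by any 2 bases, or 2 copies of TTTC on the other strand, which form the core of the interferon-stimulated response element. Each sequence is the 200 bases before the RefSeq transcription start on GRCm38.p6, written 5′ to 3′ on the strand of the gene, with matches in capitals. Ifit3 spans chr19:34583329-34583528 on the plus strand and has 2 matches. Ifit1 spans chr19:34640689-34640888 on the plus strand and also has 2 matches. Isg15 spans chr4:156200819-156201018 on the minus strand and has 3 matches that overlap one another. Slfn5 spans chr11:82951902-82952101 on the plus strand and has 1 match.
Ifit3: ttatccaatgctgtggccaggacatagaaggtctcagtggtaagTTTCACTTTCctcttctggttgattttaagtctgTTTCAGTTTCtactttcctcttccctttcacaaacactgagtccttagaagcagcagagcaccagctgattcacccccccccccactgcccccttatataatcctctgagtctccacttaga
Ifit1: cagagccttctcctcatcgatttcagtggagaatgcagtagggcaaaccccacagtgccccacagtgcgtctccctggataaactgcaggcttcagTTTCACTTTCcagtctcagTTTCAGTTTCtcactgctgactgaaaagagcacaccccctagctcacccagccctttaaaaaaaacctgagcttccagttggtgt
Isg15: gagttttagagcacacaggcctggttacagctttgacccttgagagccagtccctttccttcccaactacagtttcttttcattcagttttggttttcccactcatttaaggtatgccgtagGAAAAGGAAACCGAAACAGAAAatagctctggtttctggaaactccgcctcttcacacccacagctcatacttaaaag
Slfn5: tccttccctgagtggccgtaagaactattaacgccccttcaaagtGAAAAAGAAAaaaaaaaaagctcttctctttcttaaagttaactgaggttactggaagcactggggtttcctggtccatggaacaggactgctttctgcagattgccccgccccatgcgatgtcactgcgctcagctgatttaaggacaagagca
This pattern, searched on both strands with overlapping matches counted, stood in 17 of the 24 list genes with a RefSeq promoter window (70.8%), against 3.99% of the 27025 genes with one. For this count the windows ran from 250 bases before to 50 after the start, longer than the sequences printed. Ifi44, Oasl2 and Irf7 were among the list genes whose windows held no match. A match is a description of the letters and was not tested as a binding site. The list was written by hand as genes of this response, so the share describes the list and not a difference between the pools.

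Ifit3, which encodes an antiviral protein that binds the products of other Ifit genes, had 1 UMI in sham and 77 on day 3. Its levels were 0.675 CPM in sham, 31.1 CPM on day 3, 24.2 CPM on day 7 and 6.98 CPM on day 14, a day 3 to sham ratio of 46.2 (8.04 to 1846). Ifit1, which binds viral RNA lacking a host cap, had 2 and 61 UMIs, or 1.35 and 24.7 CPM, a ratio of 18.3 (4.85 to 154). Both genes were near the limit of detection in sham, and the width of their intervals reflects this.

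Isg15, a ubiquitin-like protein that is conjugated to other proteins, stood at 11.5 CPM in sham, 106.3 CPM on day 3, 55.0 CPM on day 7 and 8.72 CPM on day 14. The ratio of day 3 to sham was 9.27 (5.68 to 16.2), and 57 of the day 3 cells against 14 of the sham cells held an Isg15 UMI. Slfn5, a Schlafen family gene, stood at 7.42, 70.4, 45.7 and 15.7 CPM in the same order, a ratio of 9.48 (5.17 to 19.4). Irf7, a transcription factor that drives further interferon genes, stood at 17.5, 114.8, 48.5 and 12.2 CPM, a ratio of 6.55 (4.38 to 10.2). Over the settings used, the ratio ran from 6.70 to 10.9 for Isg15, from 5.7 to 29.2 for Slfn5 and from 1.96 to 9.51 for Irf7. For these 3 genes day 3 was the highest pool and day 7 the next.

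Ifi44 and Oasl2 showed the same order of pools up to day 7. Ifi44 stood at 5.40 CPM in sham, 69.9 CPM on day 3, 40.1 CPM on day 7 and 3.49 CPM on day 14 (ratio 13, 6.43 to 30.5). Oasl2, of the oligoadenylate synthetase family, stood at 2.70, 43.7, 23.3 and 1.74 CPM (ratio 16.2, 6.14 to 60.5). The most abundant list genes moved less in ratio. Ifi27l2a stood at 219.9 CPM in sham, 1027 CPM on day 3, 358.8 CPM on day 7 and 90.7 CPM on day 14 (ratio 4.67, 4.16 to 5.26). Ly6e, a surface protein that limits coronavirus entry, stood at 403.4 and 780.3 CPM in sham and day 3 (ratio 1.94, 1.76 to 2.12), and Bst2, which tethers budding virions, at 168.0 and 348.5 CPM (ratio 2.08). Slfn8 (ratio 1.34) and Ifi203 (ratio 1.27) were the 2 measured list genes under the fold threshold.

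**Figure D2:**
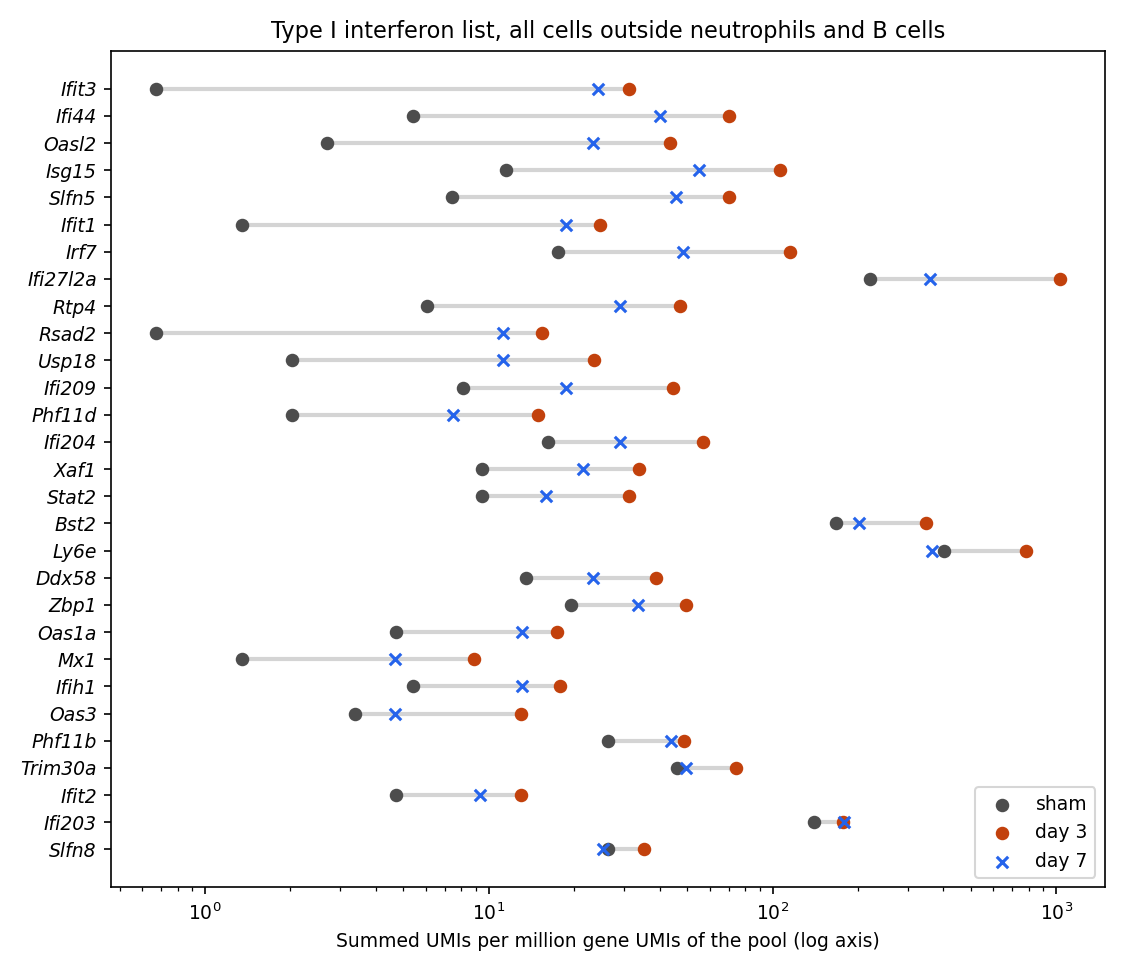
Level of 29 measured type I interferon list genes in all cells outside neutrophils and B cells, as UMIs per 1000000 gene UMIs on a log axis, in the sham, day 3 and day 7 pools. Day 3 lies to the right of sham for all 29 genes drawn, from a ratio of 46.2 for Ifit3 to 1.27 for Ifi203.

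The genes upstream of the response differed less, and they are named here after their values were seen. Ifnar1 had a ratio of 1.14 (0.866 to 1.5) and Ifnar2 a ratio of 1.36 (1.14 to 1.64). Irf9, a transcription factor of the pathway, stood at 22.9 and 38.0 CPM (ratio 1.66, 1.11 to 2.53). The 18 type I interferon ligand genes in the table together held 2 UMIs in sham and 2 on day 3. The gene of interferon gamma, Ifng, stood at 63.4 and 76.4 CPM (ratio 1.21, 0.936 to 1.56). Of 15 measured genes on the interferon gamma list, 3 were higher and 0 lower: Irgm2 (ratio 3.15), Irgm1 (2.08) and Gbp4 (1.66), with a list median log2 ratio of 0.31. MHC class I presentation genes, many of which interferons also induce, had 1 of 15 higher.

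The interferon difference was uneven across lineages. Macrophage-like cells held 52.6% of the day 3 list UMIs with 15.7% of the day 3 gene UMIs. Without them, 21 of 27 measured list genes were still higher on day 3, with a median log2 ratio of 1.11 and summed levels of 1228 CPM in sham and 1948 CPM on day 3. Leaving out any other single lineage left 27 to 29 genes higher. In bulk sums such as these, more cells of a type and more RNA per cell cannot be told apart, so the list was also read in single cells. The median cell held 8.37 list UMIs per 10000 in sham (range 0 to 76.6) and 13.2 on day 3 (range 0 to 311.6), and the 2 ranges overlapped.

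Within macrophage-like cells the list stood at 1163 CPM in sham and 11585 CPM on day 3. Of 24 measured genes, 20 were higher and 0 lower. In that cluster 28.3% of 3040 measured genes were higher and 20.4% lower. None of the list genes had 20 UMIs in the shallow sham pool of this cluster, so they passed the minimum through day 3 and the count alone is no support. The levels in single cells do not depend on that minimum. The 6 sham cells ranged from 4.73 to 28.6 list UMIs per 10000 (median 12) and the 22 day 3 cells from 9.06 to 311.6 (median 82.4). All but 1 of the day 3 cells lay above every sham cell. The sham and day 3 cells of this cluster also differed in C1qa and Ly6c2, as given below. The part of this make-up in the list levels was not tested. T cell-like cells stood at 1805 and 3243 CPM, with cell medians of 9.06 and 13.3 per 10000, and 7 of 10 measured list genes were higher. A single sham T cell-like cell held 49.6% of that pool's list UMIs. In a separate setting, the top cell of each gene was left out of the pool with the higher level. For genes higher on day 3 this was a day 3 cell, and only 2 of 7 genes then remained higher.

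NK cell-like cells stood at 907 CPM in sham and 1714 CPM on day 3, with cell medians of 7.55 and 9.06 per 10000. Of 11 measured list genes 7 were higher and 1 lower. After each cell was thinned to 2000 UMIs, which left out 1 shallower day 3 cell, 7 of 26 sham and 17 of 37 day 3 NK cell-like cells held at least 3 list UMIs. Without the top cell of each gene, 4 of 9 were higher. Basophil-like cells differed least among the lineages with at least 10 cells in each pool, at 818 and 1139 CPM, with 2 of 7 genes higher. The neutrophil-like cells stood at 1108 and 2870 CPM, although their cell medians were 12.1 and 11.8 per 10000 and 1 day 3 cell held 36.5% of the list UMIs. Type 1 dendritic cell-like cells (5 and 8 cells) stood at 974 and 4606 CPM. Plasmacytoid dendritic cell-like cells, a type known for interferon production, had the highest sham level at 5525 CPM and stood at 5430 CPM on day 3 (3 and 7 cells). Bst2 stands on the interferon list and among the markers that named this group, so part of its level follows from the naming. Among NK cell-, T cell- and basophil-like cells, few list genes reached 20 UMIs in the sham pool alone. These were Ifi203 in NK cell-like cells (ratio 1.17), Ifi203 (1.43) and Ifi27l2a (0.944) in T cell-like cells, and Ly6e (1.42), Bst2 (1.28) and Ifi203 (1.01) in basophil-like cells, all within 1.5-fold. The difference between lineages was not tested, since each lineage has 1 pool on a side.

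**Figure D3:**
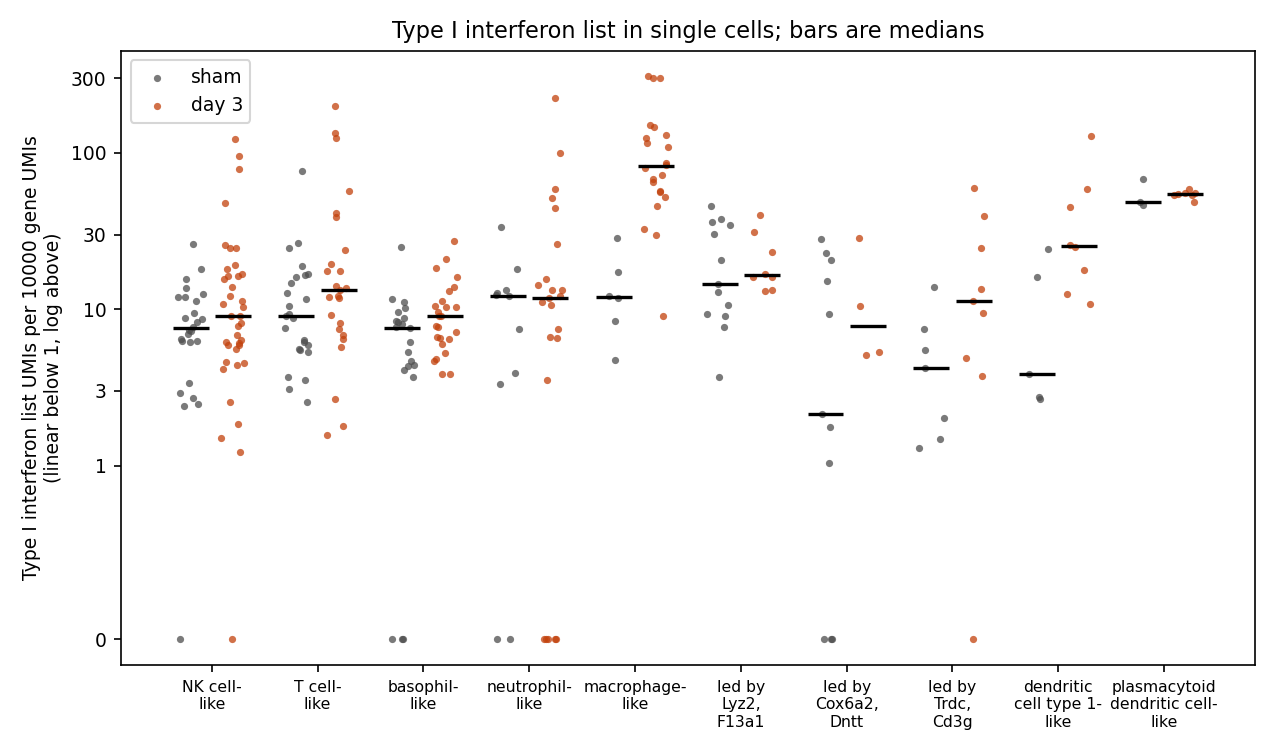
Type I interferon list UMIs per 10000 gene UMIs in single cells (points; linear below 1, log above) by cluster group for sham and day 3, with medians as bars. The myeloid progenitor-like group, with 1 sham cell, is not drawn. Macrophage-like cells of day 3 have a median of 82.4 against 12 in sham, whereas plasmacytoid dendritic cell-like cells stand near 50 in both pools.

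Outside the interferon list, 5 further genes stood among the 12 with the highest ratios by counting interval in all cells together. Ccl7, a chemokine that attracts monocytes, had 5 UMIs in sham and 235 on day 3 (3.37 and 95 CPM, ratio 28.2, 11.9 to 87.6). Its day 3 UMIs came from 11 cells, 1 of which held 28.9%, and days 7 and 14 stood at 5.59 and 3.49 CPM. Spp1, the secreted matrix protein osteopontin, had 45 and 769 UMIs (ratio 10.2, 7.58 to 14.2). Without macrophage-like cells its ratio was 1.24. Fcgr1, the high-affinity receptor for immunoglobulin G, stood at 7.42 CPM in sham, 97.8 CPM on day 3, 34.5 CPM on day 7 and 12.2 CPM on day 14 (ratio 13.2, 7.24 to 26.8). It is also among the markers that named the macrophage-like cluster. With each lineage given the same weight in both pools (lineages weighted alike), the ratio of Fcgr1 was 2.91 and that of Ccl7 6.20. Spon1, a secreted matrix protein, had 0 UMIs in sham and 65 on day 3 in 15 cells, at least 13-fold higher against a floor of 3 UMIs over the pool. Ifi202b, another interferon-inducible gene, stood at 7.42 and 65.1 CPM (ratio 8.77, 4.77 to 17.9).

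Some groups of myeloid receptors were higher in part. Of 12 measured Fc receptor and adaptor genes 5 were higher and 0 lower: Fcgr1, Cd300c2 (ratio 3.15), Fcer1a (2.14), Fcgr2b (1.72) and Fcgr3 (1.69). Without macrophage-like cells 1 of 11 was higher, the median log2 ratio was -0.05, and the ratios of Cd300c2 and Fcgr3 were 0.969 and 0.930. Without its top cell, Fcer1a had a ratio of 1.03. Of 13 pattern recognition genes 7 were higher, among them the C-type lectins Clec4n (ratio 3.00) and Clec4e (ratio 2.0). Without the neutrophil-like cells 2 of the list's genes were higher, and Clec4n and Clec4e stood at 0.734 and 0.913.

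Cell cycle genes differed in both directions. Of 30 measured 8 were lower and 5 higher, with a median log2 ratio of -0.12. Those lower were Ccne1, which encodes cyclin E1 (25 and 8 UMIs, ratio 0.192, 0.0748 to 0.439), Rrm2, a subunit of ribonucleotide reductase (141 and 98 UMIs, ratio 0.417, 0.319 to 0.543), Ccne2 (0.466), Rrm1 (0.516), Tyms (0.531), Pcna (0.595), Mcm5 (0.599) and Mcm3 (0.622). Those higher were Ube2c, which tags cyclins for destruction (ratio 3.34, 2.53 to 4.47), and Ccnb1 (2.96), Cdc20 (2.93), Ccnb2 (2.04) and Cenpf (1.54). Among genes off that list, the mitotic kinase gene Pbk stood at 0.356, the DNA ligase gene Lig1 at 0.499 (0.405 to 0.615), Brca1 at 0.30 and Tcf19 at 0.236. The balance turned with the cells used: 13 were higher and 6 lower with lineages weighted alike (median log2 ratio 0.47), and 8 higher and 5 lower without the deepest 5% of cells. Weighting lineages alike also left out the myeloid progenitor-like cells (1 sham, 8 day 3), so it changed both the weights and the cells.

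Further genes with low ratios mark particular lineages. Dapl1, found in naive T cells, had 33 UMIs in sham and 10 on day 3 (ratio 0.182, 0.0799 to 0.377), and Cd5, a T cell receptor modulator, had 39 and 21 (ratio 0.323, 0.180 to 0.562). Itga2b, the integrin of platelets and their progenitors, had 75 and 50 UMIs (ratio 0.40). The noncoding Chd3os had a ratio of 0.252. Rab27b, a secretory vesicle gene, stood at 0.282, but at 1.10 without the 3 deepest clusters (basophil-like, myeloid progenitor-like, and the cluster led by Lyz2 and F13a1).

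Macrophage-like cells differed most in character between the pools. In sham, all 6 held UMIs of C1qa, a subunit of complement C1q made by resident macrophages, and 0 held Ly6c2, the surface antigen of inflammatory monocytes. On day 3, 10 of 22 cells held Ly6c2 without C1qa, 5 held both, 4 held C1qa without Ly6c2 and 3 held neither. The sham cells were shallower, with a median of 4690 UMIs against 18754, so an absent gene weighs less there. All 22 day 3 cells held a UMI of Csf1r, the macrophage growth factor receptor, which stood at 767 CPM against 1521 CPM in sham.

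Monocyte genes were at or near 0 in the sham macrophage-like cells. Ly6c2 stood at 0 in sham, 684.7 CPM on day 3, 22.5 CPM on day 7 and 43.2 CPM on day 14, at least 10.2-fold higher on day 3. Ccr2, the receptor through which monocytes leave the blood, stood at 22.4, 924, 382 and 0 CPM. Plac8 had 0 UMIs in sham and 339 on day 3 (at least 13-fold higher), and Fn1, which encodes fibronectin, 0 and 349 (at least 13.4-fold higher). S100a6 stood at 44.7 and 1555 CPM (ratio 34.8, 9.58 to 288). The whole monocyte marker list stood at 290.7 CPM in sham, with 3 of its 6 genes at 0, and at 3374 CPM on day 3, with 1 at 0.

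Interferon genes were higher in the same cells. Ly6e had 2 UMIs in sham and 888 on day 3, or 44.7, 2286, 596 and 43.2 CPM over the 4 pools (ratio 51.1, 14.1 to 423). Ifi27l2a stood at 246, 5009, 1519 and 216 CPM (ratio 20.4, 11.3 to 40.9). Irf7 had 0 and 210 UMIs, at least 8.06-fold higher. Of 13 measured MHC class I presentation genes 7 were higher and 1 lower, among them the immunoproteasome genes Psmb9 (ratio 3.11, 1.03 to 15.4) and Psmb8 (2.46, 1.27 to 5.45) and H2-K1 (2.21, 1.44 to 3.57). Spp1 stood at 447.3 and 1864 CPM (ratio 4.17, 2.68 to 6.86), or at a ratio of 1.44 with cells thinned to 2000 UMIs, and the galectin gene Lgals3 at 67.1 and 409.3 CPM (ratio 6.10, 2.05 to 29.9).

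Genes of resident macrophages pointed the other way. Of 15 complement and resident macrophage genes 11 were lower and 0 higher, with a median log2 ratio of -0.99 beside 0.13 for all measured genes of the cluster. C1qa stood at 7134 CPM in sham, 1109 CPM on day 3, 4421 CPM on day 7 and 5532 CPM on day 14. Its day 3 to sham ratio was 0.156 (0.134 to 0.180), with 29.8% of the sham UMIs in 1 cell. C1qb stood at 0.280 (0.235 to 0.335) and C1qc at 0.183. These genes helped to name the cluster, so their levels describe its make-up. Without the top cell of each gene, 4 of 13 list genes were lower and 2 higher, with a median log2 ratio of -0.16. Axl, a receptor for dying cells, had a ratio of 0.321 (0.17 to 0.639), and Irf8, a transcription factor of mononuclear phagocytes, a ratio of 0.492 (0.307 to 0.822). Hmox1, which degrades heme, had 111 UMIs in sham and 47 on day 3, or 2482 and 121 CPM, and 4 of 5 iron and heme genes were lower. For Hmox1, as for C1qc, 1 cell held more than 30% of the sham UMIs.

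Other differences in the macrophage-like cells also rested on 1 sham cell. That pool had 44713 UMIs in all, of which its deepest cell held 14316. Of 7 measured MHC class II genes 5 were lower, but 52.6% to 70.1% of the sham UMIs of those 5 came from 1 cell, and Cd74 turned to a ratio of 1.44 without its top cell. Of 12 measured chemokines 5 were higher and 7 lower, and without the top cell of each gene 1 of 11 was lower. Of 17 immediate early genes 13 were lower, with 42.3% to 79.0% of the sham UMIs of those in 1 cell. Neutrophil transcripts stood at 11384 and 9052 CPM in the sham and day 3 macrophage-like cells, and their part in the results was not tested.

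**Figure D4:**
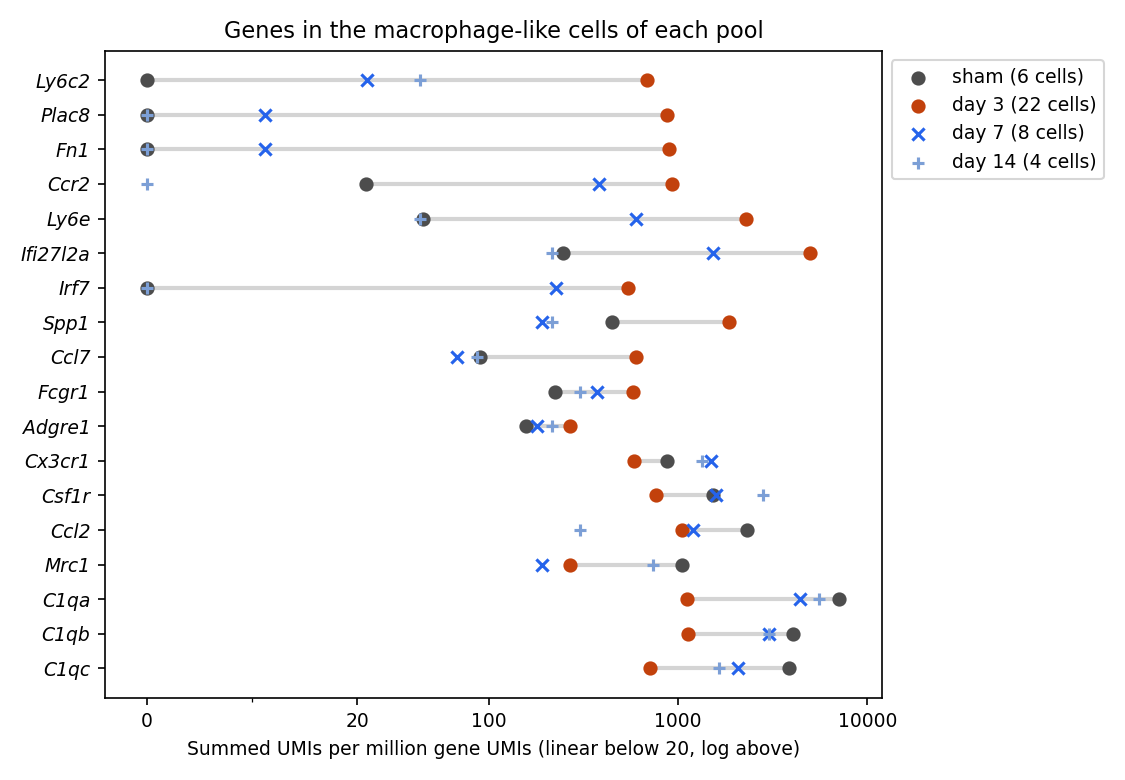
Level of selected genes in the macrophage-like cells of each pool, as UMIs per 1000000 gene UMIs (linear below 20, log above), with cell numbers in the key. Ly6c2, Plac8, Fn1 and Irf7 are at 0 in sham and at 541 to 898 on day 3, whereas C1qa, C1qb and C1qc are highest in sham.

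T cell-like cells of day 3 held more transcripts of some cytotoxic effectors. Of 2248 measured genes, 17.3% were higher and 14.6% lower. Ccl5, a chemokine of activated T and NK cells, had 37 UMIs in sham and 422 on day 3, or 247.4 and 2162 CPM, with 424 CPM on day 7 and 3810 CPM on day 14 (ratio 8.74, 6.24 to 12.6). Klrd1, an NK receptor chain, had a ratio of 6.13 (2.93 to 14.8), and Nkg7, a granule protein, a ratio of 2.42 (1.71 to 3.48). Ctla2a (5.90), the interleukin 2 receptor chain gene Il2rb (3.45) and Cd7 (2.99) were also higher. Of 6 measured cytotoxic effectors 5 were higher and 0 lower, including Xcl1 (ratio 5.45, 2.70 to 12.5) and Ifng (ratio 3.37, 1.67 to 7.51). For both Xcl1 and Ifng, 1 cell held more than 30% of the day 3 UMIs. The list has 18 genes. Genes with few sham UMIs, such as Klrd1 (8 and 64 UMIs), reached the 20 UMI minimum through day 3, so the count alone is no support. Over the settings used, 2 to 10 were higher and 0 to 1 lower, and the ratio of Ifng ran from 1.57 to 38.1.

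Genes of naive T cells were lower in part. Of 10 measured naive or central T cell genes 3 were lower and 0 higher: Dapl1 (220.7 and 51.2 CPM, ratio 0.232), Lef1 (0.528, 0.347 to 0.794) and the lymph node homing receptor Ccr7 (0.534, 0.299 to 0.938). Ccr7 turned to 1.40 with cells thinned to 2000 UMIs. Cd5 stood at 0.354, and Bcl11b, a transcription factor of the T lineage, at 0.457 (0.296 to 0.698). Kmt2c (0.279), Dusp10 (0.373) and Itpkb (0.426) were lower as well. Cell cycle genes were higher in 9 of 11, but 1 day 3 cell held 66.7% of their UMIs, and without the top cell of each gene 1 of 5 was higher.

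The T cell-like cells came from 2 clusters in unequal parts. The cluster led by Ccl5 held 4 sham and 13 day 3 cells, and that led by T cell receptor genes with S1pr1 held 21 and 12. Ccl5 stood at 926 and 3249 CPM within the first and at 26.6 and 0 CPM within the other. With the 2 clusters weighted alike, the ratio of Ccl5 was 3.39, that of Nkg7 1.30, that of Dapl1 0.433 and that of Cd5 0.365, and 3 of 6 cytotoxic effectors were higher. Lef1 then stood at 0.851 and Ccr7 at 1.02, 1 of 10 naive or central T cell genes was lower and 1 higher, and the median log2 ratio of that list turned to 0.17. Of 10 type I interferon genes, 5 were then higher and 1 lower. NK cell markers in the T cell-like cells summed to 93.6 CPM in sham and 456 CPM on day 3, and Ncr1, an NK receptor, had 0 and 29 UMIs, the latter in 5 cells. Their part in the cytotoxic difference was not tested.

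In NK cell-like cells, most cytotoxic genes were within 1.5-fold of sham. Of 3598 measured genes, 13.6% were higher and 11.5% lower. Of 16 measured cytotoxic effectors 1 was higher and 1 lower. Gzmb, which encodes granzyme B, had 36 UMIs in sham (7 cells) and 216 on day 3 (16 cells), or 195.6 and 663 CPM (ratio 3.39, 2.38 to 4.97), with 31.9% of the day 3 UMIs in 1 cell. Ccl4 had a ratio of 0.589 (0.474 to 0.733). Perforin, Prf1, stood at 630.1 and 528.2 CPM (ratio 0.838, 0.659 to 1.07), Gzma at 5242 and 3943 CPM (ratio 0.752) and Ifng at a ratio of 0.976 (0.741 to 1.29).

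Among single genes in NK cell-like cells, Pmepa1, a target of TGF-beta signalling, had 3 and 29 UMIs (ratio 5.47, 1.69 to 28.0). Tsc22d3, the glucocorticoid-induced gene that encodes GILZ, had 23 and 95 UMIs (ratio 2.34, 1.47 to 3.86), with 161 CPM on day 7 and 99.5 CPM on day 14 beside 124.9 in sham and 291.8 on day 3. Serpina3g, an inhibitor of cathepsins (2.42, 1.43 to 4.29), the homeobox gene Hhex (3.04), the formin Fmnl1 (2.77) and S100a6 (1.99) were also higher. Of 11 lymphocyte activation genes 4 were higher and 0 lower, led by Tnfrsf9, which encodes 4-1BB (ratio 2.62, 1.20 to 6.5). Trbc2 (0.456), Cdk13 (0.362), the mitochondrial Pdhb (0.377), Acin1 (0.467), Traf1 (0.450) and Nufip2 (0.435) were lower. Cell cycle genes were higher in 11 of 15, with 74.7% of their day 3 UMIs in 1 cell and 0 of 6 higher without the top cell of each gene. Neutrophil markers stood at 1651 and 1468 CPM, B cell markers at 234 and 135 CPM and hemoglobin genes at 168 and 3.07 CPM in these cells. The neutrophil and B cell lists hold genes that the rule limited, so their levels are only descriptive.

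**Figure D5:**
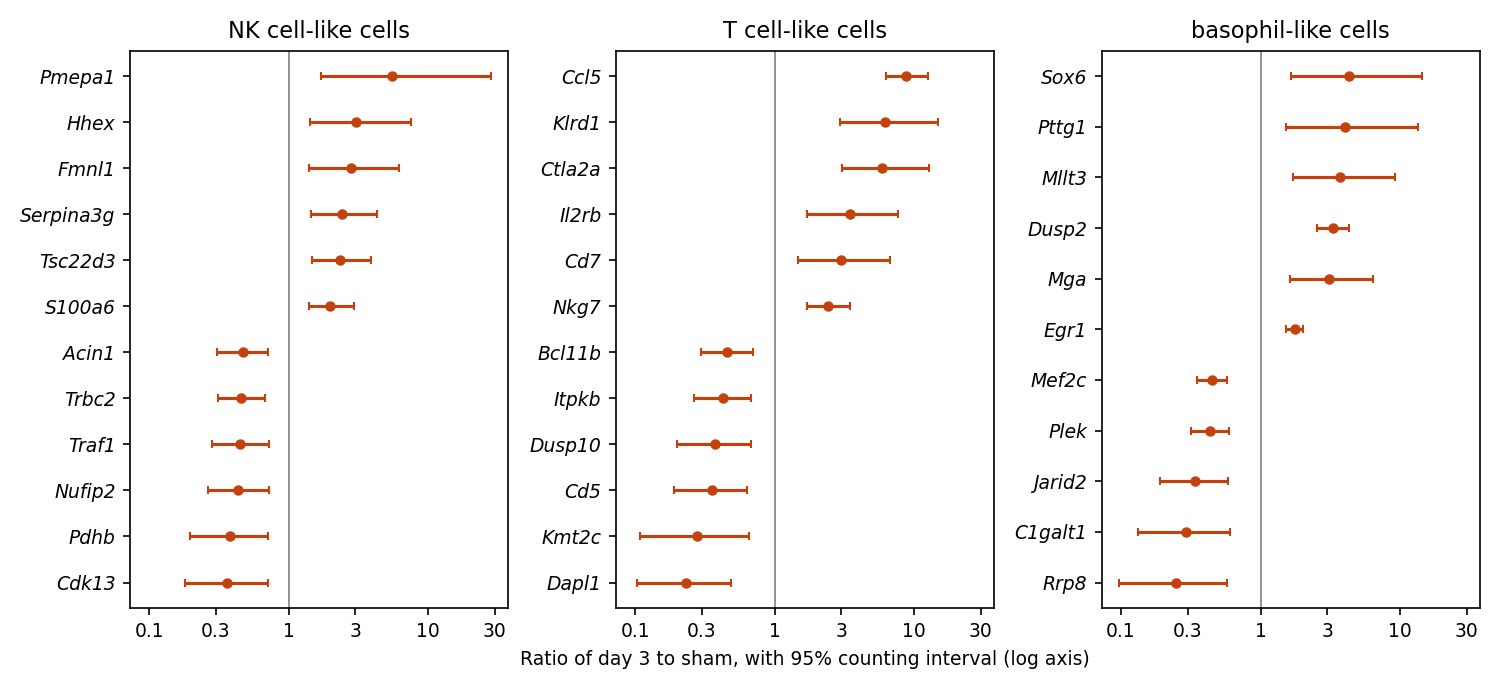
Ratio of day 3 to sham for up to 6 genes with the highest and up to 6 with the lowest ratios by counting interval in NK cell-like, T cell-like and basophil-like cells (points, log axis), with exact 95% counting intervals (bars). The T cell-like panel holds Ccl5 at 8.74 and Dapl1 at 0.232.

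The basophil-like group was a mixture, and its name held for a minority of its cells. Mcpt8, the basophil protease that leads its profile, had UMIs in 5 of 21 sham and 6 of 25 day 3 cells. Kit, the stem cell factor receptor, was seen in 14 and 22 cells and Cd34 in 7 and 16. Markers of stem or multipotent progenitors summed to 1169 CPM in sham and 1157 CPM on day 3. At a finer clustering, 3.88% of sham and 3.39% of day 3 cells were basophil-like. The results of this group therefore describe basophils and early progenitors together.

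In these cells 10.1% of 5976 measured genes were higher and 12.6% lower. Immediate early genes, which answer to acute signals and to handling, were higher in 6 of 18 and lower in 0. Egr1 had 287 and 678 UMIs, or 646.7 and 1139 CPM (ratio 1.76, 1.53 to 2.03), and Junb stood at 1221 and 1886 CPM (ratio 1.54, 1.39 to 1.71). Dusp2, a phosphatase that acts on MAP kinases, had 69 and 304 UMIs (155.5 and 510.5 CPM, ratio 3.28, 2.52 to 4.33). Sox6 (4.32), Pttg1 (4.02), Mllt3 (3.73) and Mga (3.11) were also higher. Of 10 measured azurophil granule genes 4 were higher and 1 lower, among them Mpo, myeloperoxidase (601.6 and 1008 CPM, ratio 1.68, 1.45 to 1.94).

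Mef2c, a myeloid and lymphoid transcription factor, had 178 UMIs in sham and 107 on day 3 in the basophil-like group (ratio 0.448, 0.349 to 0.573). Jarid2 (0.339), Plek (0.437), C1galt1 (0.293) and Rrp8 (0.248) were lower too, although Plek turned to 1.44 with cells thinned to 2000 UMIs. Of 7 measured chemokines 6 were lower. The difference of Pf4, platelet factor 4, with 518 and 5 UMIs, lay in 4 sham cells, 1 of which held 73.4%. Ccl3 stood at 1007 and 347.6 CPM (ratio 0.345, 0.291 to 0.408), with 39.6% in 1 sham cell. Mast cell markers summed to 730 CPM in sham and 174.6 CPM on day 3. The mast cell proteases Mcpt4 (125 UMIs), Cma1 (99 UMIs) and Tpsb2 (35 UMIs) came from 1 sham cell and were at 0 in the day 3 cells.

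The neutrophil-like cells, which the rule had left in, carried higher levels of some bacterial sensing and NF-kB genes on day 3. Of 825 measured genes, 20.4% were higher and 20.6% lower. Cd14, the co-receptor for bacterial lipopolysaccharide, had 5 UMIs in sham and 148 on day 3 (167.8 and 2092 CPM, ratio 12.5, 5.22 to 39.0). Clec4n stood at 234.9 and 1244 CPM (ratio 5.29, 2.46 to 13.6), and 4 of 7 pattern recognition genes were higher. Tnfaip3, a brake on NF-kB, had 2 and 30 UMIs (ratio 6.32, 1.6 to 54.6), and 8 of 11 NF-kB genes were higher and 0 lower. With 5, 7 and 2 sham UMIs, Cd14, Clec4n and Tnfaip3 reached the 20 UMI minimum through day 3, so these counts alone are no support. Over the settings used, 2 to 11 NF-kB genes were higher and 0 to 2 lower, with median log2 ratios of 0.25 to 1.40. Dusp2 (3 and 67 UMIs, ratio 9.41, 3.08 to 46.8) and Plac8 (1 and 42 UMIs, ratio 17.7, 3.01 to 715) were higher, from sham values near the limit of detection. Bcl2a1b had 5 and 47 UMIs (ratio 3.96). Jaml, an adhesion molecule used in migration, had 40 and 23 UMIs (ratio 0.242, 0.138 to 0.414), and Egr1 stood at 0.450. Sh3glb1 (0.349), Zeb2 (0.341), Mirt1 (0.333) and Gcnt2 (0.443) were lower as well. Since this group holds only the cells under the calprotectin limit, it does not stand for all cochlear neutrophils.

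The other groups with 5 to 13 cells in each pool were compared after their numbers had been seen. In the cluster led by Lyz2 and F13a1 (13 and 8 cells), 13.7% of 3667 measured genes were higher and 13.9% lower, and 6 of 7 azurophil granule genes were higher. Mpo had 55 and 408 UMIs there (ratio 8.33, 6.27 to 11.2), with 56.1% in 1 day 3 cell. H2afy (ratio 1.70, 1.41 to 2.07) was higher, and Ccrl2 (0.192), Tnrc18 (0.16) and the lectins Clec4a3 (0.305) and Clec4a1 (0.299) were lower. In type 1 dendritic cell-like cells, 21.8% of 1514 measured genes were higher and 17.5% lower. Ifi27l2a had 2 and 214 UMIs there (ratio 85.5, 23.4 to 710), with more than 30% of the day 3 UMIs in 1 cell. The antigen presentation gene H2-Eb1 stood at 2931 and 6710 CPM (ratio 2.29, 1.99 to 2.63). Fth1, which encodes ferritin heavy chain, stood at 2169 and 5874 CPM (ratio 2.71, 2.31 to 3.18). In the cluster led by Trdc and Cd3g (7 and 9 cells), 19.2% of 735 measured genes were higher and 15.2% lower, with Tmsb10 at 2460 and 4503 CPM (ratio 1.83, 1.47 to 2.29) and Pnrc1 at 834 and 278.4 CPM (ratio 0.334, 0.177 to 0.602).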

How the data were processed

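Cochlear CD45+ cells of 4 hashtagged pools were profiled in 1 droplet run. Both deposited matrices give whole UMI counts for each gene of a barcode, written by Cell Ranger 3.1.0 per the file headers, with the mm10 build per the submitters' processing notes. Gene counts were identical in both matrices and were used once, and the calling of barcodes as cells was not stated in the labels. More than 1 kit version is named in the labels. The filters are those given in the report, and doublets between pools were removed only by the hashtag rule. No doublet caller was run, so doublets within a pool remain.

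The cells of all 4 pools that met the rule were clustered on log counts per 10000, with 2000 variable genes, 30 components, 15 neighbours and Leiden resolution 1. A cluster was named from marker lists when at least 3 markers were 2-fold above the median cluster. Of 3 unnamed clusters, 2 had more leading genes of another list, and the one with Dntt among its leading genes was refused its plasmacytoid dendritic cell name after the clusters were seen. Names end in "-like" because they rest on RNA. UMIs were summed per pool, divided by the gene total, and compared as a ratio with an exact conditional Poisson interval. A gene at 0 in a pool was set to 3 UMIs for the ratio. The summing and interval code was tested on simulated data.

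Genes were named by rule: those with the ratio bounds farthest from 1, 12 each way for all cells and 6 for a lineage, with at least 30 UMIs and at most 30% of the higher pool's UMIs in 1 cell, plus up to 4 members of each gene list. Others are named in the report to complete a list's count or as background. Lineages with at least 10 cells in each pool were compared, and those with at least 5 were added later. The members and lists were chosen with earlier results of these data known. Some genes that met the rule are not reported here. Cells are not replicates. Promoters and the motif came from RefSeq windows on GRCm38.p6, and figures were drawn with matplotlib 3.10.9. The other tools were igraph 0.11.9, pandas 2.3.3, scanpy 1.11.5, scipy 1.17.1 and numpy 2.4.6 under Python 3.11.15.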

Additional observations from a re-analysis of the deposited data

Results flagged for a closer look

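The basophil and mast cell effector list differed in direction between 2 groups of cells, a difference that was not tested. Its median log2 ratio of day 3 to sham was 1.84 in the neutrophil-like cells and -1.28 in the macrophage-like cells. Among its genes are the chemokines Ccl3 and Ccl4, for which 1 day 3 cell held 92.9% and 80% of the neutrophil-like UMIs and 1 sham cell 90.3% and 85.7% of the macrophage-like UMIs.

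Data outside the comparison of day 3 with sham also showed the type I interferon list above the sham level. The day 7 cells that met the same rule stood at 1801 CPM, against 1226 CPM in sham. Among the cells that the rule left out for calprotectin or granule genes, mostly neutrophils, the list stood at 1136 CPM on day 3 against 300.5 CPM in sham, with 566.7 CPM on day 7 and 453.5 CPM on day 14.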

How the results depend on the processing

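No paired analysis was possible because each condition is 1 pool and the labels give no replicate numbers. For all cells together, the counts of higher and lower genes (865 and 832) were 1409 and 1254 with the mean CPM per cell, 540 and 338 without the top cell of each gene, 454 and 390 of 7530 at a minimum of 50 UMIs, 1510 and 1449 of 12133 with no minimum, and 544 and 474 of 4271 after thinning to 2000 UMIs per cell. The NK cell-like total of called genes (903) was 337, 206, 2908 and, of 917 genes, 235 in the last 4 settings in turn. The T cell-like total (716) was 259, 129, 3089 and, of 572, 150. The basophil-like total (1361) was 462, 372, 3298 and, of 547, 152. The neutrophil-like total (338) was 133, 104, 1532 and, of 508, 209. Type I interferon genes higher without the top cell numbered 4 (NK), 2 (T) and 0 (basophil-like). With no minimum they were 15 of 26, 17 of 22 and 8 of 16. At 50 UMIs they were 1 of 3 (T) and 0 of 3 (basophil-like). Thinned, they were 12 of 16 in all cells and 3 of 3 in macrophage-like cells. The NK cell cycle count was 1 of 6 without the deepest 5% of cells and 0 of 3 thinned. The pattern recognition count was 2, with a median log2 ratio of -0.06, and the ratios of Clec4e and Clec4n were 0.913 and 0.734 without neutrophil-like cells. Without the top cell, 1 macrophage-like chemokine was lower and Cd74 stood at 1.44. Thinned, Ccr7 in T cell-like cells stood at 1.40 and Plek in basophil-like cells at 1.44. With lineages weighted alike, Fcgr3 stood at 0.900, and with T cell-like clusters weighted alike Ccr7 stood at 1.02. Without macrophage-like cells, Cd300c2 and Fcgr3 stood at 0.969 and 0.930. Without the 3 deepest clusters, Pf4 stood at 1.82 and Rab27b at 1.10. At resolution 1.5 the basophil-like shares were 3.88% and 3.39%. The causes were not tested, beyond the fewer cells or genes that a setting leaves. Too few genes or cells were left for the interferon list in NK, T and basophil-like cells when thinned, in NK cells at 50 UMIs, and for basophil-like expression at resolution 1.5. The settings on cells left out by lineage, on the top cell and on clusters weighted alike were in part chosen after seeing the data. With 1 pool a side, none of the settings measures differences between mice.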

Other observations

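Cells left out for Cd79a alone, which are B lineage cells, stood closer together on the type I interferon list: 1177 CPM in sham, 1555 CPM on day 3, 1378 CPM on day 7 and 1492 CPM on day 14. Housekeeping groups were level in all cells together, with 0 of 31 respiratory chain subunits and 0 of 24 ribosomal protein genes past 1.5-fold in either direction.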
